A study of Mus musculus with 5 samples.

Results

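The genes described here are Mt1 (ENSMUSG00000031765) and Mt2 (ENSMUSG00000031762), the metallothionein genes expressed in most mouse tissues, taken by name as 2 of the 28692 genes of the count matrices and followed across marker-defined cell classes and days. The pair was chosen by its values in pro/pre-B cells at day 3, so those values are a description and carry no test. Bone marrow of 5 C57BL/6J mice, 8 weeks old, was profiled by droplet-based single-cell RNA sequencing. Every mouse, the day 0 mouse included, had received 1000 BCR-ABL1 pre-B acute lymphoblastic leukemia (ALL) cells through the tail vein without irradiation. The day 0 mouse was killed directly after the injection and the others at days 3, 6, 9 and 12, with 1 mouse per day and no mouse without a transplant. Flushed marrow was pooled with cells that collagenase and DNase I released from the crushed long bones, and red blood cells were lysed. The cells were then cryopreserved and sent frozen for encapsulation and sequencing. With 1 library per day, a day cannot be told apart from its mouse or its library, and no test between days was possible.

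Metallothioneins are small, cysteine-rich proteins of the cytosol that bind zinc and copper, and they buffer free metal and scavenge reactive oxygen. Transcription of Mt1 and Mt2 is raised by zinc through the metal-sensing factor MTF1, which binds metal response elements (MREs) in both promoters, and also by glucocorticoids, oxidative stress and inflammatory cytokines. Cells of the bone marrow are known to make metallothionein and to raise it when zinc is given.

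Both genes lie on the forward strand of chromosome 8 (GRCm38), Mt2 at chr8:94172664-94173568 and Mt1 at chr8:94179082-94180327, with 5513 bases between them and 3 exons in the first-named transcript of each (Mt1-201 and Mt2-201). These transcripts are 549 and 511 bases long and 62.7% identical. Over the last 200 bases, where a 3′ library reads, they are 61.5% identical with a longest shared run of 12 bases, so the tags of the 2 genes differ in letters. The bases before the first annotated start of each gene are shown because metal response elements are the known route by which metal acts on this pair, with each match to TGCACNC or TGCGCNC, on either strand, in capitals (RefSeq promoters, GRCm38.p6, forward strand).
Mt1, chr8:94178839-94179081: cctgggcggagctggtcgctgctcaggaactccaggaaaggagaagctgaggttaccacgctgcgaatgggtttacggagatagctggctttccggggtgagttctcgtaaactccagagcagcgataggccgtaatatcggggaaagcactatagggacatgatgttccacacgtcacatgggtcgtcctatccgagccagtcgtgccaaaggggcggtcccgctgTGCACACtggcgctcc
Mt2, chr8:94172368-94172617: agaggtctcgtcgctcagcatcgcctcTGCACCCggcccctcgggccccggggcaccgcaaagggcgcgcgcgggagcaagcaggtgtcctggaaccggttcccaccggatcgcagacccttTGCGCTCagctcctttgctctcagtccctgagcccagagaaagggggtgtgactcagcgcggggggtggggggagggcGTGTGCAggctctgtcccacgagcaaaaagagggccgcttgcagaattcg

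In the whole RefSeq promoter windows, from 250 bases before the start to 50 bases after it, Mt1 held 3 MRE matches and Mt2 held 4. In Mt1 they began 23 bases before and 2 and 20 bases after the start, and in Mt2 they began 223, 128 and 50 bases before and 4 bases after it. Positions are counted from the RefSeq start. Other annotated transcripts begin downstream, at 94179211 and 94179241 for Mt1 and at 94172860 for Mt2. All of these matches lie before those starts, and the bases between the windows and those starts were not searched. Mt2 also held 1 match to TGACNNNGC, a core spelling of the antioxidant response element, which began 79 bases before the start, and Mt1 held none in this window. Of 32851 promoters of the same length, 12.6% held TGCACNC, 15.4% held TGCGCNC, 12.4% held TGACNNNGC, and 1.97% held 3 or more MRE matches. Mt3 and Mt4, the neighbouring family members with expression known in brain and in stratified epithelium, held 1 MRE match each. A match is a run of letters and not a measured binding site.

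Barcodes with at least 500 unique molecular identifiers (UMIs, 1 per captured RNA molecule) were taken as cells, which gave 5474 to 7604 cells per library and 32135 in all, at a median of 2874 to 3786 UMIs per cell. Clusters were named from marker genes, with Mt1, Mt2 and the other genes of the metal and stress lists kept out of the clustering, and 30165 cells fell into 17 named classes while 6.13% stayed unnamed. Library pairs shared 44 to 73 cell barcodes, where random draws from the barcode list give 43.6 to 68.9. The pair farthest from its chance value was days 3 and 6, with 68 shared against 48.3. Levels are a gene's summed UMIs per 10000 UMIs of the cells in question, with exact Poisson 95% intervals that cover counting error only. Because 3′ tags are counted once per molecule whatever the transcript length, Mt1 and Mt2 levels can be set side by side.

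Over the 5 libraries the cells held 14693 Mt1 UMIs in 3656 cells and 1490 Mt2 UMIs in 368 cells, and 250 cells held both. Mt1 UMIs numbered 3201 at day 0, 4566 at day 3, 2310 at day 6, 2533 at day 9 and 2083 at day 12. Mt2 UMIs numbered 130, 950, 259, 138 and 13 on the same days. Per 10000 UMIs of all cells, Mt1 was 1.07, 1.44, 0.710, 0.709 and 0.769 and Mt2 was 0.0435, 0.299, 0.0796, 0.0386 and 0.00480. Day 3 was thus the highest library for both genes, days 6 and 9 were lowest for Mt1 and day 12 for Mt2. The cells that held the transcripts changed with the day: granulocyte-macrophage progenitors (GMP) held 38.9% of the Mt1 UMIs at day 0, 15.1% at day 3 and 31.5% to 55.5% later while making up 2.09% to 3.29% of cells, and pro/pre-B cells held 63.1% at day 3 against 2.16% to 4.75% on the other days. For Mt2, pro/pre-B cells held 85.2% of the UMIs at day 3. Free RNA, read from barcodes with at most 100 UMIs, held Mt1 at 0.688 to 1.20 per 10000 and Mt2 at 0.0102 to 0.258, with both highest at day 3, so that cells without the gene can still carry a few of its UMIs.

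**Figure D1:**
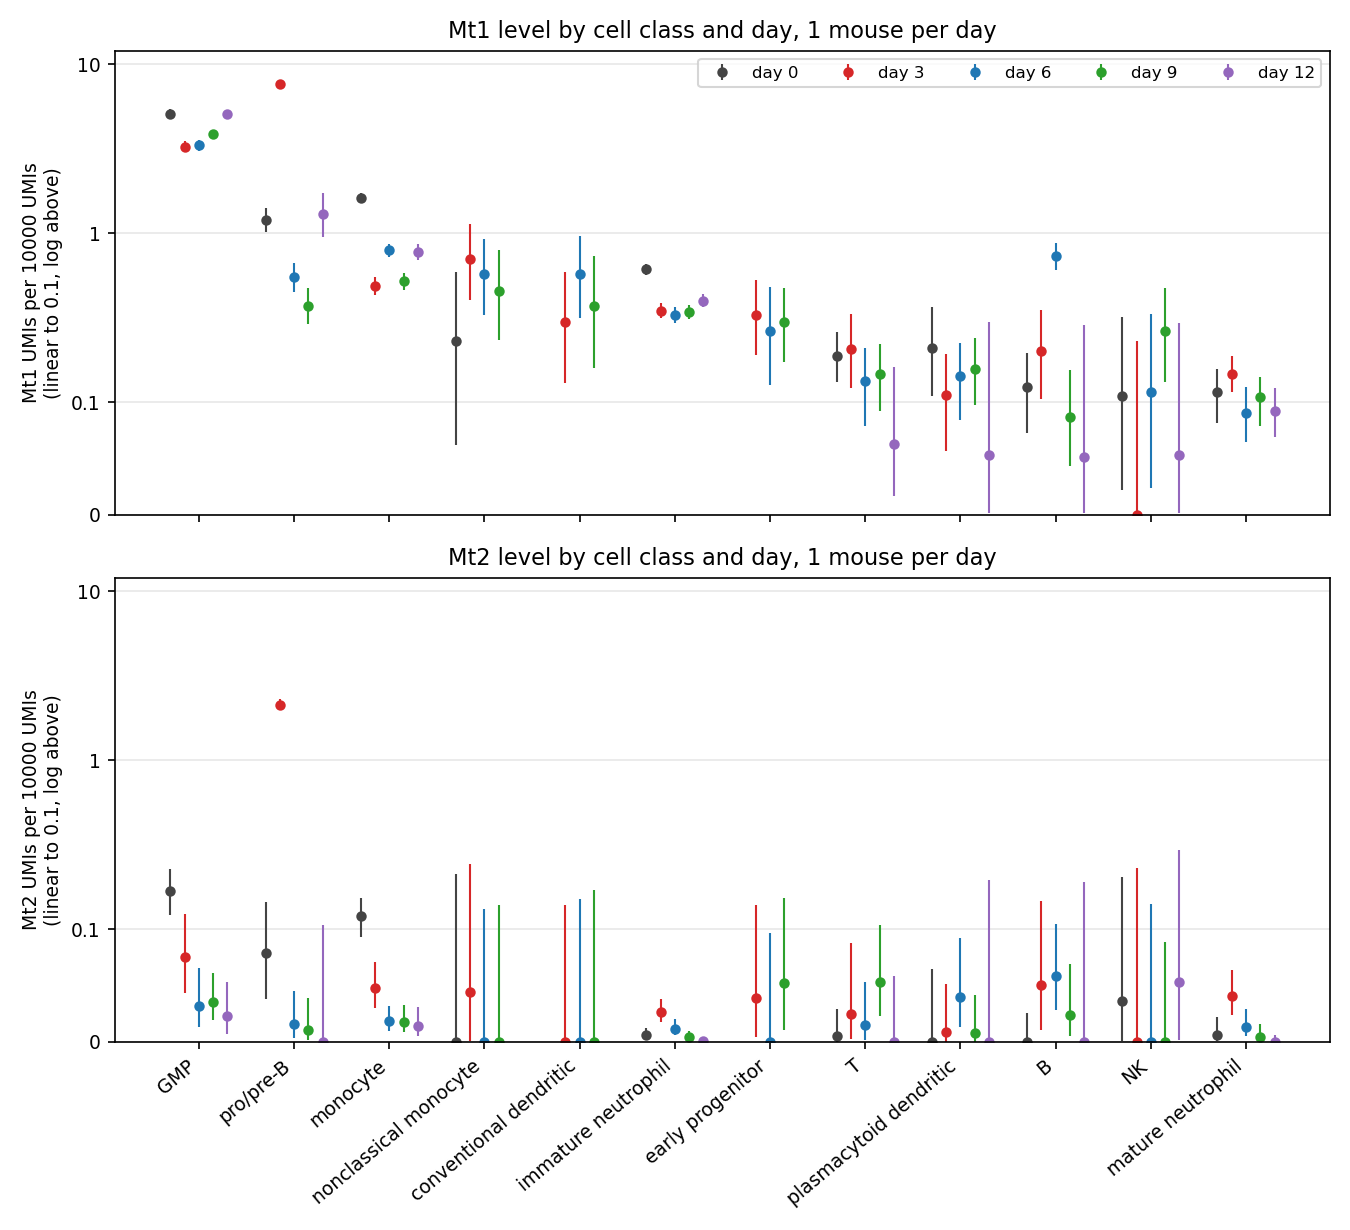
Level of Mt1 (top) and Mt2 (bottom) in UMIs per 10000 UMIs for each class with at least 20 cells in a library, coloured by day. Points are single libraries of 1 mouse and bars are exact Poisson 95% intervals; the axis is linear up to 0.1 and logarithmic above. GMP sat between 3.25 and 5.10 for Mt1 on every day, and pro/pre-B cells at day 3 stood at 7.60 for Mt1 and 2.13 for Mt2.

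The classes were ordered by the median Mt1 level of their libraries. GMP came first with a median of 3.88, followed by pro/pre-B cells at 1.20, monocytes at 0.776, nonclassical monocytes at 0.512, conventional dendritic cells at 0.371, immature neutrophils at 0.348 and early progenitors at 0.297. Below these lay T cells at 0.147, plasmacytoid dendritic cells at 0.143, B cells at 0.123, natural killer (NK) cells at 0.109 and mature neutrophils at 0.107. The ranges over libraries overlapped for each pair of neighbours except early progenitors and T cells, so no other step was larger than the spread between days. That step sets 3 libraries of early progenitors, without days 0 and 12 at 12 and 16 cells, against 5 of T cells. Conventional dendritic cells also rested on 3 libraries and nonclassical monocytes on 4. Without the day 3 library, pro/pre-B cells ranged from 0.373 to 1.29, within reach of monocytes at 0.519 to 1.62, and GMP from 3.31 to 5.10 stayed above both. The order by Mt2 was not resolved, since the ranges of all neighbours overlapped and the medians, from 0.0387 in early progenitors down to 0 in 3 classes, rested on few UMIs.

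The share of cells with an Mt1 UMI followed the same order at its ends, from 69.6% to 85.8% of GMP to 2.32% to 3.86% of mature neutrophils. Since GMP held a median of 13788 to 17196 UMIs per cell and mature neutrophils 1996 to 2565, each cell was also thinned to 1000 UMIs, after which 22.2% to 41.1% of GMP and 1.005% to 1.62% of mature neutrophils held a UMI. Thinning left out 1 GMP cell and between 83 and 151 mature neutrophils per library. At most 0.0571 to 0.108 of the mature neutrophil level could come from free RNA, by the largest contamination that S100a8 plus S100a9, immunoglobulin or haemoglobin UMIs of the class allow, against measured Mt1 levels of 0.0902 to 0.148. In GMP the same bound was 0.0422 to 0.0958, small beside a level above 3.

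GMP, which give rise to neutrophils and monocytes, held Mt1 at 5.10 per 10000 at day 0 (95% interval 4.82 to 5.40), 3.25 at day 3, 3.31 at day 6, 3.88 at day 9 and 5.05 at day 12, in 118 to 250 cells per library. The level was lower at days 3, 6 and 9 and back at the day 0 value at day 12, with ratios to day 0 of 0.64 (0.58 to 0.70), 0.65, 0.76 and 0.99 (0.91 to 1.07). Of all genes compared in GMP at day 3, 4.09% were at least 1.5-fold lower. With coarser clusters (Leiden resolution of 1) the log2 ratio of GMP at day 3 was -0.24 in place of -0.65, and with classes from marker scores it was -0.44. As a mean over cells it was -0.52, and each of these 3 is within 1.5-fold. Mt2 in GMP stood at 0.168, 0.0752, 0.0318, 0.0358 and 0.0228 per 10000 on the same days, from 41, 16, 7, 13 and 5 UMIs. It was highest at day 0, with ratios to day 0 of 0.19 (0.072 to 0.43) at day 6, 0.21 (0.10 to 0.41) at day 9 and 0.14 (0.042 to 0.34) at day 12. On each of these days Mt2 was further below its day 0 level than Mt1 was. The 2 day 0 cells with the most Mt2 held 16 of the 41 UMIs. Without them the ratio of day 3 went from 0.45 to 0.73 (0.36 to 1.41), and that of day 9 was 0.35 (0.16 to 0.70). The Mt1:Mt2 ratio of GMP went from 30.4 (22.3 to 42.6) at day 0 to 222 (94.8 to 684) at day 12.

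Within GMP, Mt1 was concentrated in the cluster led by Elane, Prtn3 and Ms4a3, which encode primary granule proteases and a membrane protein of early granulocytic cells. This cluster held 27.1% to 51.1% of the GMP cells and 63.5% to 77.4% of the GMP Mt1 UMIs. Its Mt1 levels were 8.18, 8.58, 6.97, 7.33 and 7.87 per 10000 from day 0 to day 12 in order of the days, against 2.23, 1.56, 1.44, 1.73 and 2.44 in the other GMP cells, so its lowest library lay above their highest. Its level at day 3 was 1.05 (0.94 to 1.17) times that of day 0, while the share of GMP cells in it was 44.2% at day 0 and 27.1% at day 3. The other GMP cells stood at 0.70 (0.59 to 0.83) of day 0. The day 3 value of the whole class therefore mixes a smaller share of Elane cells and a lower level in the rest. Of the 320 cells of the cluster, 309 held at least 1 Mt1 UMI, the medians per library were 8.5 to 10.5 UMIs, and 0 to 7 cells per library held none.

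**Figure D2:**
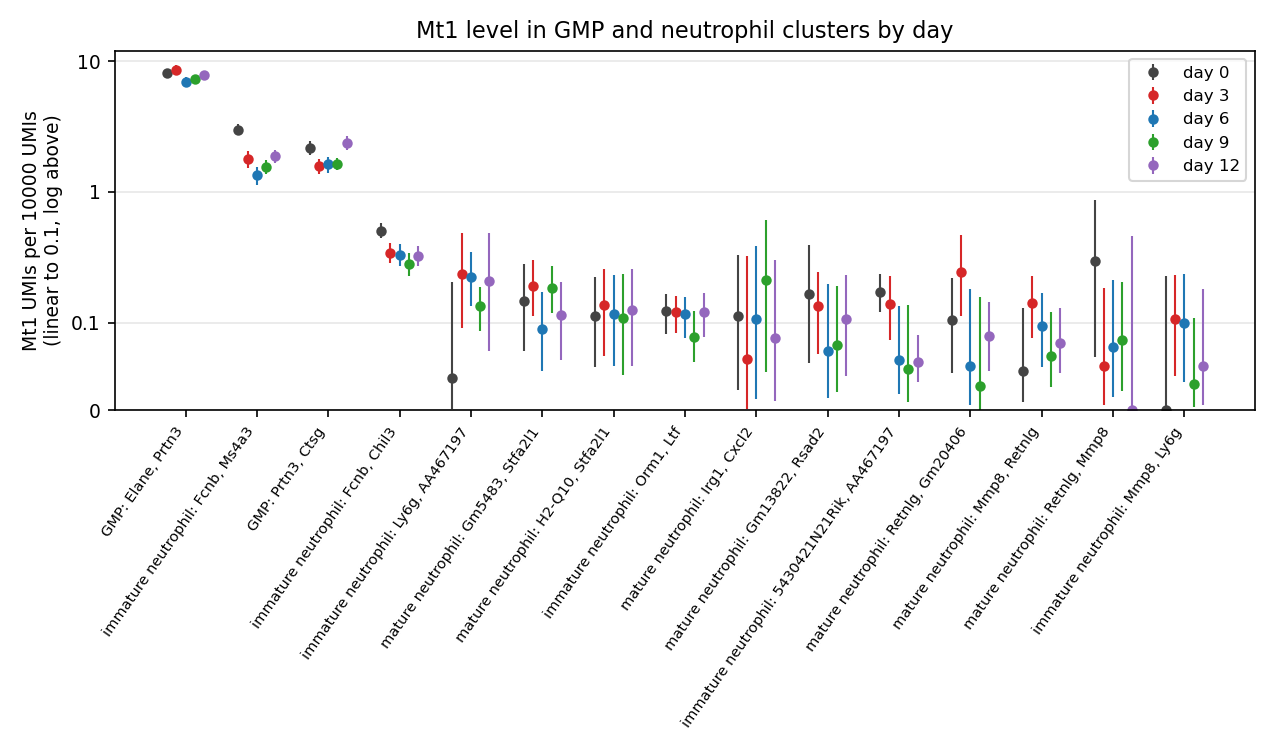
Mt1 level (UMIs per 10000 UMIs, linear up to 0.1 and logarithmic above) in the GMP and neutrophil clusters, each named by its class and 2 leading genes, by day. Points are single libraries and bars are exact Poisson 95% intervals. Clusters with under 20 cells in any library are left out, among them the GMP cluster led by Prg3 and Mpo. The cluster led by Elane and Prtn3 lies highest on all 5 days.

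Over the GMP and neutrophil clusters Mt1 was high where Elane was high, a description over clusters that share libraries. The Elane and Prtn3 cluster held Mt1 at 7.73 and Elane at 125.5 per 10000 over all days. In the immature neutrophil cluster led by Fcnb and Ms4a3, Mt1 was 1.91 and Elane 22.7, and in the GMP cluster led by Prtn3, Ctsg and Ass1 they were 1.83 and 21.5. That GMP cluster also met 3 monocyte markers and held Fcnb at 0.670, against 14.4 in the Fcnb and Ms4a3 cluster. It is therefore not read as a step towards neutrophils. The next immature neutrophils, led by Fcnb and Chil3, held Mt1 at 0.365 and Elane at 0.952. The 11 other neutrophil clusters with values in all 5 libraries held Mt1 at 0.0660 to 0.158, where the most that free RNA could give in any library was 0.0564 to 0.315 by cluster, above the measured level in some of them. Mt2 was far lower over the same clusters, at 0.133 in the Elane cluster and 0.0134 in the Fcnb and Ms4a3 cluster, where 1283 Mt1 UMIs stood beside 9 Mt2 UMIs.

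**Figure D3:**
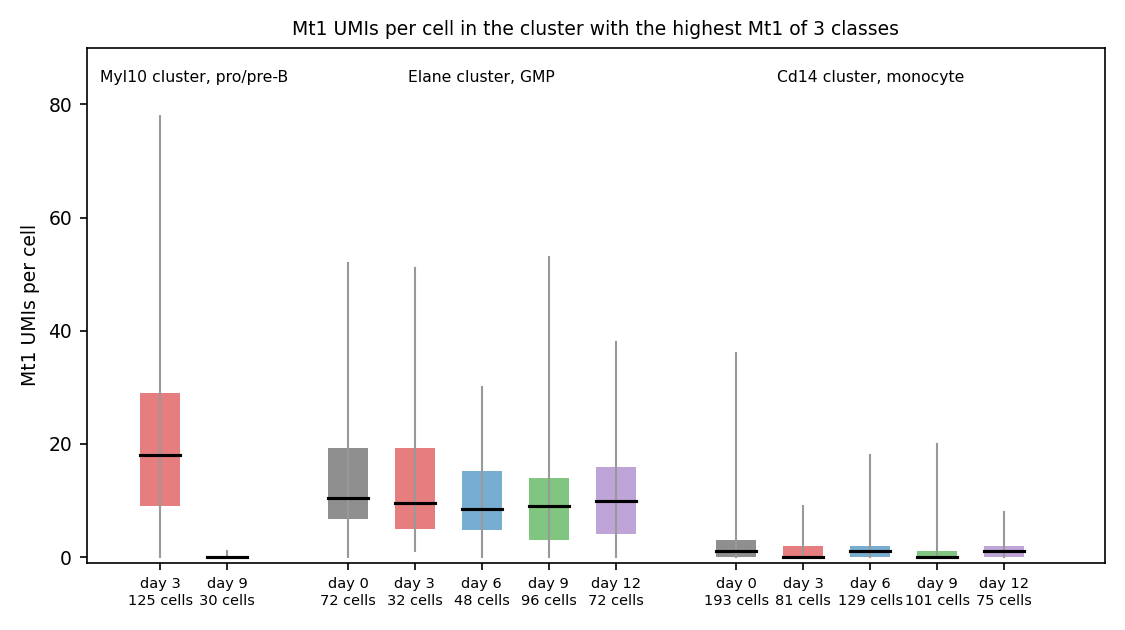
Mt1 UMIs per cell in the cluster with the highest Mt1 level of pro/pre-B cells, GMP and monocytes, by day with the number of cells; days with under 20 cells are left out. Black lines are medians, boxes run from the lower to the upper quartile and grey lines from the lowest to the highest cell. The Myl10 cluster at day 3 had a median of 18 UMIs, the Elane cluster 8.5 to 10.5 and the Cd14 cluster 0 to 1.

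In pro/pre-B cells, the B-lineage precursors marked by Vpreb1, Vpreb3 and Ebf1, Mt1 stood at 1.20 per 10000 at day 0, 7.60 at day 3, 0.551 at day 6, 0.373 at day 9 and 1.29 at day 12. These levels came from 152, 2883, 106, 70 and 45 UMIs in 312, 361, 429, 436 and 57 cells. Day 3 was highest and days 6 and 9 lowest, and 1 cell held 34.2% of the UMIs at day 0 and 46.7% at day 12, without which these days stood at 0.812 and 0.750. Mt2 was 0.0792, 2.13, 0.0156, 0.0107 and 0 per 10000, from 10, 809, 3, 2 and 0 UMIs. The ratio of day 3 to day 0 was 6.32 for Mt1 (5.36 to 7.48, 2.66 on the log2 scale) and 26.9 for Mt2 (14.6 to 56.4, 4.75 on the log2 scale), and in that pair of libraries 11.2% of the 6902 genes with at least 50 summed UMIs were at least 1.5-fold higher. The share of pro/pre-B cells with an Mt1 UMI was 9.0%, 45.2%, 7.9%, 9.2% and 10.5% on the 5 days, or 3.1%, 27.0%, 1.5%, 2.4% and 3.6% after thinning to 1000 UMIs, beside 2.32% to 3.86% unthinned in mature neutrophils.

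Most of the day 3 signal came from 125 of the 361 cells, a cluster led by Myl10, Vpreb2, Cdkn2a, Rnase12 and Tmem119. With all days pooled it met 7 of the 8 pro/pre-B markers. At day 3 it held 34.6% of the pro/pre-B cells and 69.7% of their UMIs, and it contributed 2602 of the 2883 Mt1 UMIs and 744 of the 809 Mt2 UMIs. Its levels were 9.84 for Mt1 (9.46 to 10.2) and 2.81 for Mt2 (2.61 to 3.02), against 2.45 and 0.566 in the other pro/pre-B cells of that mouse, ratios of 4.02 (3.55 to 4.56) and 4.97 (3.85 to 6.50). Transplanted leukemia cells and host precursors were not separated in these counts. Cdkn2a, a cell cycle inhibitor gene, stood at 2.20 per 10000 and Tmem119, a membrane protein gene linked to bone formation, at 1.80 in the cluster at day 3, and at 0 to 0.037 in its 8, 10, 30 and 5 cells of days 0, 6, 9 and 12. In those few cells Mt1 had 14, 2, 5 and 0 UMIs and Mt2 had 2, 0, 0 and 0, with Mt1 at 2.28, 0.221, 0.187 and 0 per 10000. The day 3 cells also differed from them in other genes and in depth. Myl10 was 17.7 per 10000 at day 3 and 1.12 to 3.32 on the other days, while Dntt was 1.27 against 4.23 to 9.74. Median depth was 19938 UMIs at day 3 and 6761 to 8868 on the other days. The lower Mt1 of the other days is therefore not a comparison of matched cells.

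Within this cluster at day 3 the transcripts were spread over nearly all cells. The median cell held 18 Mt1 UMIs, with quartiles at 9 and 29 and a maximum of 78, and 3 Mt2 UMIs, with quartiles at 1 and 9 and a maximum of 52. Both genes were seen in 101 cells, Mt1 alone in 16 and Mt2 alone in 0, and the 8 cells without Mt1 were shallower, at a median of 10894.5 UMIs against 20742. Per 10000 UMIs, the cells with more Mt1 had more Mt2 (Spearman rho 0.684 over 125 cells of 1 library, a description), and the Mt1 level did not follow depth (rho 0.016). The median depth of the cluster, 19938 UMIs, was well above the 4670 of all pro/pre-B cells at day 3, and its median mitochondrial share was 3.61%.

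Without that cluster, pro/pre-B cells at day 3 still held Mt1 at 2.13 (1.73 to 2.63) times and Mt2 at 8.51 (4.07 to 20.5) times the day 0 level, 1.09 and 3.09 on the log2 scale, where Mt2 at day 0 rested on 8 UMIs, 5 of them in 1 cell. Among the 4795 genes compared there, 4.5% were at least 1.5-fold higher. Of the remaining cells, the cycling cluster led by Myl4, Rsph9 and histone genes held 264 of the 281 Mt1 UMIs and 61 of the 65 Mt2 UMIs at day 3. Its Mt1 was 2.08, 3.20, 0.761, 0.501 and 2.11 per 10000 over the 5 days, from 129, 264, 85, 53 and 45 UMIs. In this cluster 1 cell held 52 of the UMIs at day 0 and 1 held 21 at day 12, without which these days stood at 1.31 and 1.29. Its Mt2 was 0.0967, 0.739, 0.0179, 0.0189 and 0, with 5 of the 6 UMIs of day 0 in 1 cell. The cluster led by Rag1 and Cecr2, with Rag1 a recombinase gene of small pre-B cells, held Mt1 at 0, 0.252, 0.118, 0.224 and 0, from 0 to 8 UMIs per library. At day 3 the cycling cluster stood 12.7-fold (5.38 to 39.5) above the Rag1 cluster, and at day 9 2.24-fold (1.06 to 5.45). The cluster led by Vpreb1 and Igll1, surrogate light chain genes of pro-B cells, held Mt1 at 0.271, 0.968, 0.628, 0.207 and 0, from 13 UMIs or fewer per library.

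**Figure D4:**
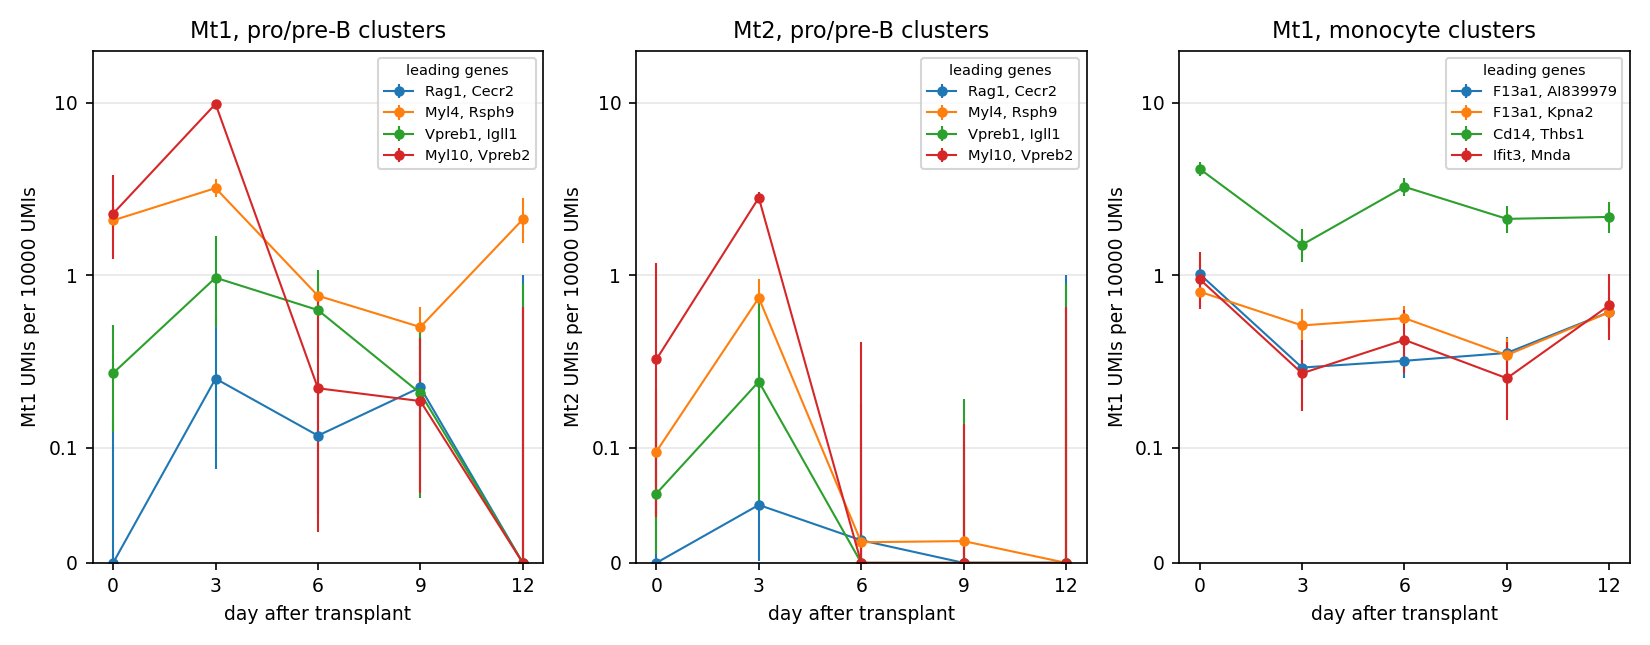
Mt1 and Mt2 levels (UMIs per 10000 UMIs, linear up to 0.1 and logarithmic above) by day after transplant in the pro/pre-B clusters (left and middle) and Mt1 in the monocyte clusters (right), each cluster named by 2 leading genes and shown where at least 5 of its cells were in the library. Each day is a different mouse, lines only join the days, and bars are exact Poisson 95% intervals. The Myl10 cluster stands above 9 for Mt1 at day 3 alone, and the Cd14 cluster is the highest monocyte cluster on all 5 days.

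In monocytes Mt1 was highest at day 0 and lowest at day 3. The class held Mt1 at 1.62 per 10000 at day 0, 0.488 at day 3, 0.791 at day 6, 0.519 at day 9 and 0.776 at day 12, from 876, 246, 516, 294 and 324 UMIs. The ratios to day 0 were 0.30 (0.26 to 0.35), 0.49, 0.32 and 0.48, and among the genes compared at day 3 4.68% were at least 1.5-fold lower. At day 3 Mt1 had the 18th lowest ratio of 8285 genes, although monocytes were deeper there than at day 0, with a median of 7814 against 5654 UMIs. The share of monocytes with an Mt1 UMI was 36.7% at day 0 and 22.3% to 28.0% later, or 12.0% and 5.3% to 7.3% after thinning. Mt2 was 0.120, 0.0476, 0.0184, 0.0177 and 0.0144, from 65, 24, 12, 10 and 6 UMIs, and 1 cell held 43.1% of the day 0 UMIs, without which that day stood at 0.0685.

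Mt1 was below its day 0 level on each later day in each of the 4 large monocyte clusters. The cluster led by Cd14, Thbs1 and Nr4a2, among them the endotoxin co-receptor gene Cd14, held Mt1 at 4.14, 1.502, 3.25, 2.12 and 2.18 per 10000. The cluster led by F13a1 and Ccr2 held it at 1.02, 0.292, 0.319, 0.355 and 0.612, so that the Cd14 cluster was 3.56-fold to 10.2-fold higher on every day. The day 3 ratios to day 0 were 0.36 in the Cd14 cluster, 0.29 in the F13a1 and Ccr2 cluster, 0.64 in the cycling cluster led by F13a1 and Kpna2 and 0.28 in the interferon gene cluster led by Ifit3. Without the Cd14 cluster the class ratio at day 3 was 0.38 (0.31 to 0.45) for Mt1. For Mt2 it was 1.80 (0.76 to 4.59), from 17 and 9 UMIs, since the Cd14 cluster held 56 of the 65 Mt2 UMIs of day 0, so the lower Mt2 of monocytes at day 3 rests on that cluster.

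Across classes, 39 pairs of a later day with day 0 had at least 20 cells on both sides, and 24 of them, in 7 classes, held at least 50 Mt1 UMIs. Of those 24, Mt1 was at least 1.5-fold higher in 2, at least 1.5-fold lower in 12 and between in 10. Over all genes with 50 UMIs and all class and day pairs, 9.72% were higher and 6.82% were lower by that fold. The higher pairs were pro/pre-B cells at day 3 and B cells at day 6, and in the latter 1 cell held 74 of the 125 UMIs, without which the level was 0.305 in place of 0.731. Without the 2 B cells with the most Mt1, which held 99 UMIs, the ratio to day 0 was 1.29 (0.68 to 2.49), so that this call rests on 2 cells. Of the 14 calls, 3 were lost when the 1 cell with the most Mt1 was left out of the higher library, namely GMP at day 6, immature neutrophils at day 12 and pro/pre-B cells at day 6, where the ratio went from 0.46 to 0.68. Mt2 reached 50 UMIs in 7 pairs of 3 classes, of which pro/pre-B cells at day 3 were higher and the 6 others, in GMP and monocytes, were lower. Of these, monocytes at day 3 were within 1.5-fold, at 0.70 (0.40 to 1.19), without 1 day 0 cell with 28 UMIs. Day 0 monocytes held 65 Mt2 UMIs, so their pairs passed the minimum whatever the later day held. Over all 39 Mt2 pairs, 7 were higher, 11 lower and 3 between, and 18 had too few UMIs for a ratio. The counts of Mt2 calls are thus a description. All pairs of a class share its day 0 library, so a day 0 library that stands apart moves each of them.

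Immature neutrophils held Mt1 at 0.611 at day 0 and 0.327 to 0.399 later, at 0.57 (0.50 to 0.65), 0.54, 0.56 and 0.65 of day 0, where 4.53% of genes were at least 1.5-fold lower at day 3. The log2 ratio of day 3, -0.81, was -0.51 with coarser clusters, -0.39 with classes from marker scores and -0.55 as a mean over cells, within 1.5-fold in each. In their Fcnb and Ms4a3 cluster Mt1 was 3.00 at day 0 and 1.34 to 1.87 later. Mature neutrophils stayed between 0.0902 and 0.148. Mt2 was higher at day 3 than at day 0 in immature neutrophils, from 7 to 29 UMIs (4.48-fold, 1.92 to 12.1), and in mature neutrophils, from 2 to 18 UMIs. Free RNA also held more Mt2 at day 3, at 0.258 against 0.0453 per 10000, and could give up to 0.0234 of the immature neutrophil level of 0.0264 and up to 0.0233 of the mature neutrophil level of 0.0403.

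The 2 genes were not expressed in a fixed proportion. Over all days Mt1 exceeded Mt2 by 143-fold (74.9 to 312) in the Fcnb and Ms4a3 cluster, 58.0-fold (45.4 to 75.3) in the Elane cluster and 13.4-fold (10.6 to 17.1) in the Cd14 monocyte cluster. The Elane cluster went from 30.2-fold at day 0 to 208-fold at day 12, and without day 0 it stood at 85.1-fold. The Cd14 cluster without day 0, which held 56 of its 77 Mt2 UMIs, stood at 27.0-fold (17.5 to 44.0). In the Myl10 cluster the ratio was 3.52 (3.24 to 3.82), and in 32 plasma cells it was 4.07 (2.65 to 6.46), or 5.33 (3.05 to 9.97) without the plasma cell with the most Mt2 UMIs. Of the stromal cells, the fibroblast and bone-forming cells of the marrow, 12 led by Dcn and Clec3b held 61 Mt1 and 70 Mt2 UMIs, a ratio of 0.87 (0.61 to 1.25), at 16.2 and 18.6 per 10000. Without 1 cell of day 6 that held 34 of the Mt2 UMIs, their Mt2 was 10.7 and the ratio 1.42 (0.91 to 2.23). The 36 stromal cells led by Cxcl12 held a ratio of 2.94 (1.70 to 5.34), with Mt1 at 3.60 in 7 cells of day 3, 4.42 in 9 cells of day 6 and 0.355 in 20 cells of day 9. Their ratio was 5.38 (2.50 to 13.2) without the cell with the most Mt2 UMIs and 2.18 (1.20 to 4.12) without the cell with the most Mt1 UMIs. At day 3 free RNA held the pair at 1.20 and 0.258, against 9.84 and 2.81 in the Myl10 cluster.

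**Figure D5:**
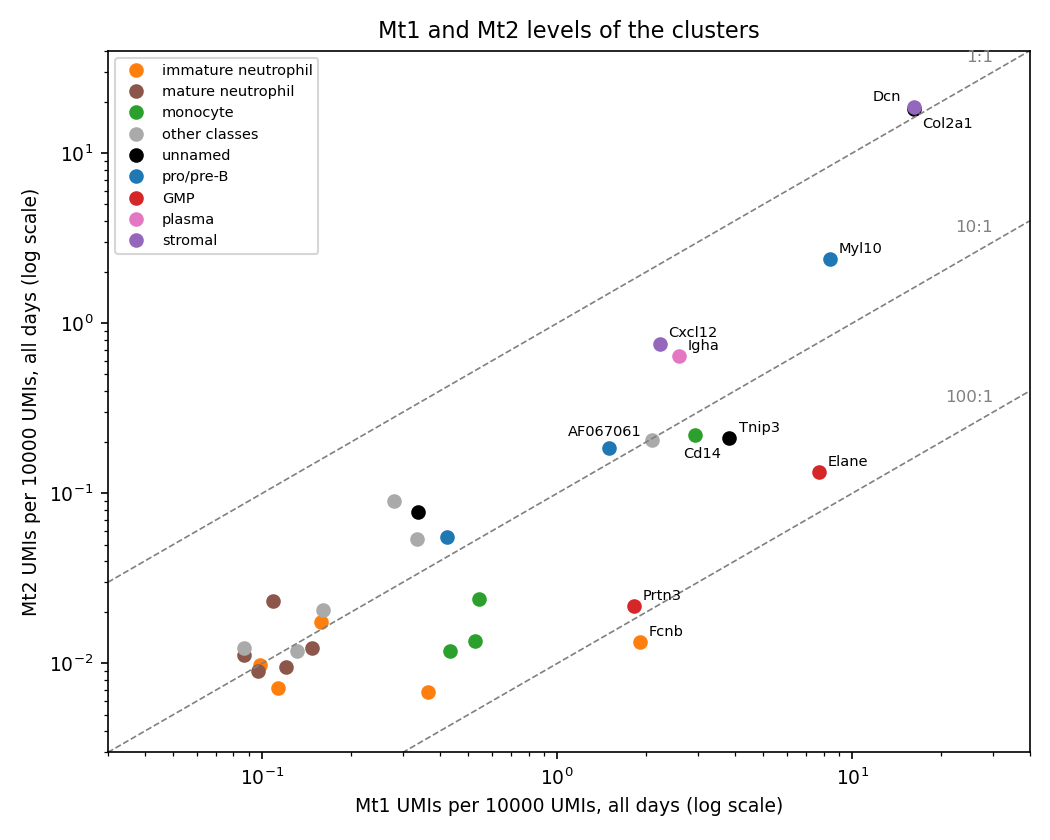
Mt2 level against Mt1 level over all days (UMIs per 10000 UMIs, both axes logarithmic) for clusters with at least 20 Mt1 and 3 Mt2 UMIs, coloured by class, with the leading gene beside clusters with high Mt1. Dashed lines mark Mt1:Mt2 ratios of 1, 10 and 100; the Dcn and Col2a1 clusters lie near the line of 1, the Myl10 cluster between 1 and 10, and the Elane, Prtn3 and Fcnb clusters between 10 and past 100.

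The other members of the metal pathway were compared between day 3 and day 0 from fixed lists. In pro/pre-B cells, 3 of the 5 Slc39 zinc importer genes with at least 50 UMIs were at least 1.5-fold higher and 0 were lower, beside 11.2% higher and 23.2% lower over all genes. Slc39a10 stood at 2.48-fold, Slc39a11 at 2.43-fold and Slc39a6 at 1.54-fold. The median log2 ratio of the 5 was 0.62, against -0.16 over all genes. Within day 3, the Myl10 cluster was higher than the other pro/pre-B cells in 4 of 5, where 11.5% of all genes compared were higher, with Slc39a11 at 3.25-fold, Slc39a1 at 2.33-fold, Slc39a6 at 2.24-fold and Slc39a10 at 2.21-fold. The 2 exporter genes measured, Slc30a5 and Slc30a9, were at 0.68-fold and 1.05-fold. Mtf1, the gene of the metal sensor, was at 0.48-fold in pro/pre-B cells, 0.73-fold in monocytes and 0.71-fold in GMP. Without the Myl10 cluster a single importer, Slc39a7, reached 50 UMIs and it was within 1.5-fold, at 0.80-fold. The 3 importers higher in the class and the 4 higher in the cluster thus reached the minimum only with the UMIs of that cluster. Both counts are therefore a description and carry no test of the importers. In monocytes, 2 of 6 importers and 1 of 5 exporters were higher and 0 were lower, and in GMP 2 of 4 and 2 of 3 were higher, beside 8.7% of all genes higher in monocytes and 13.6% in GMP. Summed over the listed importers, the level in the Myl10 cluster was 1.36 at day 3 and 1.12 in its 30 cells of day 9. Mt1 there was 9.84 and 0.187. The importer sum was 1.03 to 1.30 in the Elane cluster over the days and 1.49 in the Cd14 cluster at day 0. It was lower in the cycling pro/pre-B cluster, at 0.515 to 0.951 over the days. The part of the importers in the Mt1 levels was not tested.

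Over all genes, 11.2% were higher and 23.2% lower in pro/pre-B cells, and 8.7% higher and 4.68% lower in monocytes. Copper handling genes in pro/pre-B cells were 1 of 8 higher (Sod1, a copper-zinc superoxide dismutase, 1.54-fold) and 1 of 8 lower (Slc31a2, a copper transporter, 0.47-fold). Oxidative stress and glutathione genes were 1 of 14 higher and 2 of 14 lower, with G6pdx at 1.82-fold and Slc7a11 at 0.34-fold, and a median log2 ratio of -0.02. Glucocorticoid-induced genes were 0 of 7 higher and 5 of 7 lower, among them Ddit4 at 0.41-fold and Tsc22d3 at 0.51-fold. In monocytes, whose Mt1 was lower at day 3, 6 of 9 glucocorticoid-induced genes were also lower, with Klf9 at 0.19-fold. The part of glucocorticoid in the Mt1 levels was not tested. Of the STAT3 and acute phase genes, 0 of 2 were higher and 1 lower in pro/pre-B cells, and 2 of 9 higher and 2 lower in monocytes. Hypoxia genes were 1 of 7 higher in pro/pre-B cells and 2 of 10 lower in monocytes, with 0 in the other direction.

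Immediate early and heat shock genes, which respond to enzymatic dissociation, were at least 1.5-fold lower at day 3 than at day 0 for 15 of 16 genes in pro/pre-B cells (median log2 ratio -1.94), 13 of 18 in monocytes (-0.84) and 14 of 17 in GMP (-0.98). Over all genes, 23.2%, 4.68% and 4.09% were lower in these classes. Their summed level in monocytes was 106.0 at day 0, 49.3 at day 3, 47.4 at day 6, 53.1 at day 9 and 73.8 at day 12, highest at day 0 as Mt1 was. In GMP it was 51.6, 28.1, 22.2, 24.9 and 41.0, highest at days 0 and 12 as Mt1 was there. In pro/pre-B cells it was 52.9 at day 0 and 18.2 at day 3, the reverse of Mt1. Between the Cd14 and the F13a1 and Ccr2 monocyte clusters at day 0 it was 88.8 and 115.5, while Mt1 was 4.14 and 1.02. The part of this program in the Mt1 levels was not tested.

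Genes whose pattern was most like Mt1 plus Mt2 were ranked by Pearson correlation of log2(level + 0.05) over 58 class and day units, among 9019 genes with at least 500 UMIs. The 10 highest were Selm (r 0.818), Siva1 (0.790), Ptgr1 (0.715), Mcm10 (0.700), Pgam1 (0.698), Htra2 (0.697), Trip13 (0.691), Cdc6 (0.688), Zak (0.688) and Pnp (0.683). The units share libraries, depth and mice, so the values are a description. Once each class's mean over its days was taken off, the 5 highest were Cdkn2a (0.620), Tcrg-C2 (0.618), Gsto1 (0.595), Tpst2 (0.590) and Atp5g1 (0.577), and Mt1 with Mt2 gave 0.643. Of these, Cdkn2a and Tcrg-C2 also lead the Myl10 cluster. Of the rest of the family, Mt3 had 54 UMIs in 14 cells and Mt4 had 0 UMIs in the 32135 cells.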

How the data were processed

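UMI counts per gene and barcode were deposited by the authors as unfiltered matrices, made with Cell Ranger 2.1.1 against mm10 by 10x Genomics 3′ sequencing, and the annotation release is not given in the sources used here. Each of the 5 libraries held 33425695 to 43554233 UMIs, of which 80.2% to 84.5% were in barcodes with at least 500 UMIs. These barcodes were clustered in scanpy 1.11.5 on 987 variable genes, 20 components, 20 neighbours and a Leiden resolution of 2 (leidenalg 0.10.2), with Mt1 to Mt4 and all listed genes left out. For a cluster to take the name of a class, 3 of the class markers had to be present in 20% of its cells and 2-fold above the other cells. Mixed clusters were split in a second round, which was decided after the first had been seen. Scrublet called 155 doublets at day 0 and 0 to 2 in the other libraries, so its calls did not work there and no cell was removed.

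Levels are summed UMIs per 10000, with exact Poisson intervals. Ratios carry exact conditional binomial intervals and shares carry Clopper-Pearson intervals, all at 95% and for counting error only (scipy 1.17.1). A count of 0 was set to 3 UMIs for a bound on a ratio. Genes were compared when their 2 sums reached 50 UMIs, classes when both libraries held 20 cells, and a 1.5-fold difference was the call, with no test because each day is 1 mouse. The computations of levels, intervals and calls were tested on simulated data. Free RNA was read from barcodes with at most 100 UMIs. The members and the lists (zinc importers and exporters, copper, oxidative stress, glucocorticoid, STAT3, hypoxia and dissociation genes) were chosen with earlier results of these data known. Beside Mt1 and Mt2, the genes named were at most 4 of each list by size of ratio, the 10 and 5 genes most like the pair, and the genes that lead a cluster. Cebpd was not analysed here. Motifs and gene models were read with Biopython 1.88, and figures were drawn with matplotlib 3.10.9.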

Additional observations from a re-analysis of the deposited data

Results flagged for a closer look

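The same contrast, day 3 over day 0, went in opposite directions in pro/pre-B cells and monocytes. For Mt1 the log2 ratio was 2.659 in pro/pre-B cells and -1.731 in monocytes, and for Mt2 it was 4.752 and -1.336. The Mt2 value of monocytes rests on few cells: without the Cd14 cluster it was 0.85, and without 1 day 0 cell the ratio was 0.70 in place of 0.40, within 1.5-fold. Each value compares 1 mouse with 1 mouse, and the difference between the classes was not tested. The dissociation genes were lower at day 3 in both classes, and their part in either value was not tested.

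Among the unnamed cells, 2 clusters stood out. The cluster of 14 cells led by Col2a1, 3110079O15Rik and Col11a2, with Col2a1 a cartilage collagen gene, held Mt1 at 16.243 and Mt2 at 18.107 per 10000, and 1 cell of day 6 with 9885 UMIs held 143 of its 183 Mt1 UMIs and 114 of its 204 Mt2 UMIs, without which the cluster stood at 3.89 and 8.76. The cluster of 73 cells led by Tnip3, Bcl2a1d and Cd83 held Mt1 at 3.827 per 10000. Mt3 had 28 of its 54 UMIs in 1 stromal cell at day 3.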

How the results depend on the processing

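The 11 main values were recomputed under 16 alternatives, and 134 of 161 comparisons stayed within their limits, 26 moved and 1 reversed. These totals include the setting on clusters mostly from 1 library, which removed no cell and so could not differ. Of 97 log2 ratios, 96 kept their sign. With the mean over cells in place of the sum, the Mt1 log2 ratio of day 3 over day 0 was 3.58 in pro/pre-B cells (2.66 in the report) and -0.55 in immature neutrophils (-0.81). Thinning to 1000 UMIs gave 3.60 in pro/pre-B cells and -0.85 in GMP (-0.65), with 1 Mt1 pair higher of 13 counted (2 of 24), and 0 Mt2 pairs higher and 0 lower since 0 reached the minimum. Taking free RNA off at its bound gave -2.02 for Mt1 and -2.22 for Mt2 in monocytes (-1.73 and -1.34), -1.20 in immature neutrophils, and 6.87 for GMP over mature neutrophils (5.18). A Leiden resolution of 1 gave 2.42 in pro/pre-B cells, -1.30 in monocytes, -0.51 in immature neutrophils and -0.24 in GMP, with 1 higher Mt1 pair. Classes from marker scores, which kept 77.9% of cells in their class, gave -0.39 in immature neutrophils and -0.44 in GMP, with 8 higher Mt1 pairs and 3 higher Mt2 pairs (1). The lower Mt1 of GMP and of immature neutrophils at day 3 thus passed 1.5-fold as reported but not under these last 2 settings, nor with the mean over cells, where GMP stood at -0.52. Leaving out the Myl10 cluster, an alternative chosen after seeing the data, gave 1.09 for Mt1 and 3.09 for Mt2 in pro/pre-B cells. Leaving out the Cd14 monocyte cluster, chosen likewise, gave -1.40 for Mt1 and turned Mt2 to 0.85 in monocytes, with 2 lower Mt2 pairs of 3 counted. Without the cell with the most UMIs of the gene in each class and library, also chosen afterwards, Mt1 in pro/pre-B cells was 3.20. At a fold of 2, 6 Mt1 pairs were lower in place of 12. With at least 1 UMI in both libraries in place of 50 summed UMIs, 35.1% of genes passed the fold in place of 16.5%, and with a pseudocount of 0.5, 5 of the 10 and 2 of the 5 most similar genes were the same. Removing the Scrublet calls, or the top 5% of doublet scores (also chosen after seeing the data), moved none of the 11. The Scrublet calls were only 155 cells at day 0 and 0 to 2 cells in each other library. The causes of these shifts were not tested. No cluster had over 80% of its cells in 1 library, so leaving out such clusters removed nothing. No paired analysis was possible because each day is 1 library and the labels give no replicate numbers. With 1 mouse per day, the spread between mice is unknown, and Mt2 of GMP, monocytes and neutrophils rests on at most 65 UMIs per class and day.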

Other observations

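Small classes left out of the order of levels also held Mt1. In 15 macrophages, cells that engulf dying cells and recycle iron, Mt1 stood at 4.57 per 10000 over all days, with 39 Mt1 and 0 Mt2 UMIs. In 32 plasma cells, which secrete antibody, it stood at 2.60, from 110 Mt1 UMIs beside 27 Mt2 UMIs, or at 1.92 without the cell with the most Mt1 UMIs. Among 808 GMP cells, 43 held both genes, 565 held Mt1 alone, 2 held Mt2 alone and 198 held neither.

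At day 3, the GMP cluster led by Elane held Mt1 at 0.872 (0.787 to 0.965) times and Mt2 at 0.0903 (0.0479 to 0.155) times the level of the Myl10 cluster of the same mouse. The 2 clusters were thus close in Mt1 and far apart in Mt2.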
